A study of Mus musculus with 52 samples.

Results

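The 10 genes described here are actin and contractile genes that serum response factor (SRF) is known to control: Actb, Actg1, Acta2, Tagln, Tpm1, Tpm2, Myl9, Cnn1, Cfl1 and Vcl. They were taken by symbol from the deposited transcript tables, and each was represented by its longest transcript. All 10 were found, among 23043 genes kept. Monomethylation, dimethylation and trimethylation of histone H3 lysine 4 (H3K4me1, H3K4me2 and H3K4me3) had been mapped by ChIP-seq in mouse embryonic fibroblasts (MEFs) immortalized by the 3T3 method, in which loxP sites flank part of both alleles of MLL2 (Kmt2d), an H3K4 methyltransferase. FC/FC cells had received tamoxifen for 24 h, which excises the flanked part of both MLL2 alleles. By the paper's general methods, treated cells were then washed and grown for several more days before harvest, so 24 h is not the time of harvest. F/F cells are the same line with 0 h of tamoxifen. Genotype and drug therefore cannot be told apart in any comparison, since F/F cells exposed to the drug with an intact gene were not analysed here. There were 3 FC/FC and 3 F/F libraries for each mark, 18 of the 52 samples of the study, and each is named here by its NGS library number. The cells are 1 immortalized line, and nothing in the labels pairs an FC/FC library with an F/F library, so p-values measure the spread between these libraries.

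SRF is a transcription factor that binds a short A/T-rich element, the CArG box, and is switched on at cytoskeletal genes by cofactors of the myocardin family (MRTFs). MRTFs are held back by monomeric actin, so that assembly of actin filaments turns on genes for actin itself and for the proteins that bind and move it. In fibroblasts these genes make up the stress fibre and focal adhesion machinery, and several are used as markers of smooth muscle and of myofibroblasts. Trimethylation of H3K4 is known for its place at active promoters, monomethylation for enhancers and promoter flanks, and dimethylation for both.

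Across the 18 libraries, 26714377 to 49990775 reads fell in transcripts. Between 81444 and 120661 H3K4me1 peaks were called per library, with 56112 to 70437 for H3K4me2 and 17129 to 18701 for H3K4me3. H3K4me3 covered the start site of 8 of 9 fibroblast marker genes in all 6 libraries, with Thy1 the exception. Of the markers of other cell types it covered 0 of 4 haematopoietic and 0 of 7 striated muscle, 1 of 4 epithelial (Cdh1) and 1 of 4 endothelial genes (Kdr) in all 6 libraries. It covered 3 of 6 smooth muscle markers (Smtn, Lmod1 and Actg2) in all 6 libraries and none of Myh11, Des and Myocd in any. The summed H3K4me3 RPKM of the 6 smooth muscle markers was 6.78 to 7.55 in FC/FC and 6.84 to 7.81 in F/F libraries. One H3K4me2 FC/FC library, NGS-6282, carries the catalogue number of the H3K4me1 antibody in its labels although its other labels give H3K4me2. Across genes, it correlated with H3K4me2 libraries of both genotypes at a Spearman coefficient of 0.990 to 0.992, and with those of H3K4me1 at 0.822 to 0.857, a description over genes. Among the 6 H3K4me2 libraries it also had the fewest reads in transcripts (31514831) and the shortest length under peaks (104 Mb). Whether this set its values was not tested. The library was kept, and results that rest on it are given with and without it. Methylation over the MLL2 gene does not check the excision, since reads were counted over the whole transcript.

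The genes lie on 7 chromosomes of mm10, and only chromosomes 9 and 19 hold more than 1 of them. On the plus strand are Myl9 (chr2:156775464-156781657), Cnn1 (chr9:22099253-22109221), Cfl1 (chr19:5490455-5494031) and Vcl (chr14:20929433-21033673). On the minus strand are Actb (chr5:142903118-142906754), Actg1 (chr11:120345690-120348484), Acta2 (chr19:34240336-34255373), Tagln (chr9:45929628-45936058), Tpm1 (chr9:67022593-67049213) and Tpm2 (chr4:43513726-43523554). Distances below are counted from these starts in the direction of transcription, and negative values lie upstream.

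The promoters of 8 of the 10 genes had an entry in the RefSeq promoter table (GRCm38.p6, 250 bases before to 50 bases after the start), and Actb and Tagln had none. A CArG box, CC followed by 6 A or T bases and GG, reads the same on both strands by its pattern and was searched for in these 300-base windows. It was present in 3 of the 8, Actg1, Myl9 and Vcl, against 535 of all 32851 promoters (1.63%). The 3 are printed because they hold the element that names this gene set at the sites where the methylation was measured. Sequences are 5′ to 3′ on the strand of the gene, and capitals mark the CArG box.
Actg1, chr11:120348446-120348745, minus strand: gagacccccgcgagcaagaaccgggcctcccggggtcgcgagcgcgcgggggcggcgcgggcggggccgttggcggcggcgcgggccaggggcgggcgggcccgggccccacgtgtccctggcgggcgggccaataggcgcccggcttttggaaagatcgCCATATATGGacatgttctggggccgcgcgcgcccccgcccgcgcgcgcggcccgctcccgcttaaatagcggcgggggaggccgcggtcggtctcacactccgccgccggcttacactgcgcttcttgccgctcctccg
Myl9, chr2:156775214-156775513, plus strand: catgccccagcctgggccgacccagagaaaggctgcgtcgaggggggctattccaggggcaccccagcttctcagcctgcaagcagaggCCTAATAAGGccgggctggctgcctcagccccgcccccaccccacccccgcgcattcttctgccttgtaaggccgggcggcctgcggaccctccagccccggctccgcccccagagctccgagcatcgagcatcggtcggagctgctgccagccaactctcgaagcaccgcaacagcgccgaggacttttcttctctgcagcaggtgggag
Vcl, chr14:20929148-20929447, plus strand: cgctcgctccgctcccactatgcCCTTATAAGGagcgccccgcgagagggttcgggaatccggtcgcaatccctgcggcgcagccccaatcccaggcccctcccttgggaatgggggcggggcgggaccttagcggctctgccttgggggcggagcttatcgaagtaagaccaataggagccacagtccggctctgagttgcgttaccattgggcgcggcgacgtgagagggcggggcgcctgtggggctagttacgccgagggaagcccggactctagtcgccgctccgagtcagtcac

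The box begins at -90 in Actg1, at -161 in Myl9 and at -227 in Vcl, counted from the RefSeq gene start. An H3K4me3 peak lay over the Myl9 and Vcl boxes in 3 of 3 FC/FC and 3 of 3 F/F libraries, and over the Actg1 box in 2 of 3 FC/FC and 3 of 3 F/F libraries. H3K4me2 peaks covered the Myl9 and Vcl boxes in every library of both genotypes and the Actg1 box in 0 of 3 FC/FC and 0 of 3 F/F libraries. H3K4me1 peaks covered the Myl9 box in 3 of 3 FC/FC and 3 of 3 F/F libraries, the Vcl box in 1 of 3 and 1 of 3, and the Actg1 box in 0 of 3 and 0 of 3. The windows of Acta2, Tpm1, Tpm2, Cnn1 and Cfl1 held no match, which says only that these letters are not within those 300 bases.

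In FC/FC cells the H3K4me3 levels of the members lay between the percentiles 63.3 (Cnn1) and 99.9 (Actb) of all genes. Values are RPKM, reads scaled to the length of the transcript (extended by 500 bp on both sides) and to the total of reads in transcripts, so levels can be compared between genes per length, but a mark that sits at the promoter is diluted in a long gene. Actb and Actg1, the 2 cytoplasmic actins, were the highest. Actb averaged 51.2 ± 4.89 in FC/FC and 50.6 ± 4.70 in F/F cells (SD, n = 3 each). Actg1 averaged 44.2 ± 1.79 in FC/FC and 42.8 ± 1.63 in F/F cells. Cfl1, encoding the actin-severing protein cofilin, came next with 26.0 ± 1.65 in FC/FC and 25.1 ± 0.860 in F/F cells, and Myl9, a regulatory light chain of non-muscle and smooth muscle myosin, followed with 15.0 ± 1.00 and 13.9 ± 1.51. Tpm2, Tagln and Acta2 lay close together, at 12.3 ± 0.383, 12.1 ± 0.642 and 11.5 ± 0.378 in FC/FC cells and at 12.2 ± 0.571, 11.5 ± 1.38 and 11.7 ± 0.180 in F/F cells. Their F/F libraries overlapped, and in FC/FC cells Tagln overlapped with both of the others while Tpm2 and Acta2 did not overlap. Tpm1 was at 9.09 ± 0.197 in FC/FC and 9.05 ± 0.462 in F/F cells. The lowest were Vcl, the longest member with 104241 bp, at 2.42 ± 0.0523 in FC/FC and 2.30 ± 0.116 in F/F cells, and Cnn1 at 1.15 ± 0.115 and 0.922 ± 0.200. The order was the same in both genotypes except for Tagln and Acta2, which did not differ beyond their spread.

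**Figure D1:**
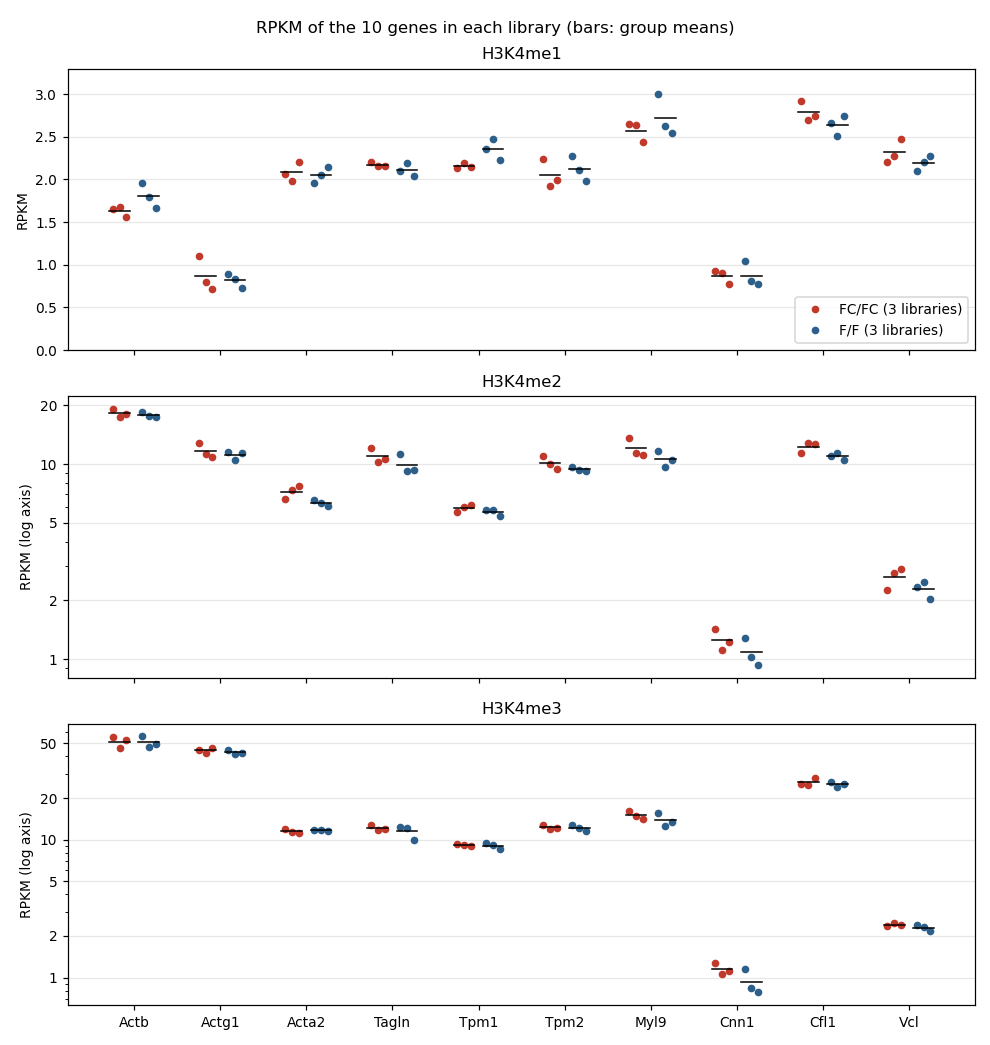
RPKM of each gene in each library for the 3 marks, with FC/FC (red) left of F/F (blue), points for libraries and bars for group means. The H3K4me2 and H3K4me3 axes are logarithmic. The libraries of the genotypes overlap for every gene and mark except H3K4me1 at Tpm1 (lower in FC/FC) and H3K4me2 at Acta2 (higher in FC/FC).

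H3K4me2 followed a similar order within a narrower range, with Actb highest at 18.3 ± 0.851 RPKM in FC/FC and 17.9 ± 0.470 in F/F cells and Cnn1 lowest at 1.25 ± 0.157 and 1.08 ± 0.185. H3K4me1 over the 10 transcripts had group means of 0.870 (Cnn1) to 2.79 RPKM (Cfl1) in FC/FC and 0.816 (Actg1) to 2.73 RPKM (Myl9) in F/F cells. In FC/FC cells these H3K4me1 levels lay between the percentiles 56.9 (Cnn1) and 96.0 (Cfl1) of all genes. The 2 cytoplasmic actins differed most between marks in RPKM, which depends on the stretch counted. They are short (3637 bp for Actb and 2795 bp for Actg1, against 104241 bp for Vcl). H3K4me1 regions from -7176 to -90 bp at Actb and from -8614 to -397 bp at Actg1 lay mostly outside the transcript and its 500 bp extension. The ratio of mean H3K4me3 to mean H3K4me1 RPKM was 50.8 at Actg1 and 31.4 at Actb in FC/FC cells (52.5 and 28.0 in F/F cells), against 1.04 at Vcl and 1.32 at Cnn1 (1.05 and 1.06 in F/F cells).

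Broad H3K4me3 peaks lay over the start sites of 9 of the 10 genes. The peak over the start site of Tpm1 was 10119, 11015 and 9865 bp wide in the FC/FC libraries and 10113, 10460 and 10294 bp in the F/F libraries, at the 99.7th percentile of 12180 genes in FC/FC and the 99.6th in F/F cells. Vcl had 8842, 8955 and 8932 bp in FC/FC and 8786, 8894 and 8892 bp in F/F libraries. The mean width over all these genes had a median of 2789 bp and a 90th percentile of 4479 bp, and only Cnn1 among the members was below that median, with 2513, 2292 and 2439 bp in FC/FC and 2031, 1948 and 1925 bp in F/F libraries. The H3K4me2 peak over the start site was wider than the H3K4me3 peak at every member but Actb and Actg1. At Acta2, Tpm1 and Vcl the H3K4me2 peak was over 14 kb in some libraries. At Actb it was narrower, with 4291 to 4578 bp against 6358 to 7278 bp for H3K4me3. There it was followed, after a short gap, by a separate H3K4me2 peak in all 6 libraries. The merged H3K4me2 regions ran from -4059 to 559 bp and from 736 to 6072 bp, so H3K4me2 as a whole was not narrower at Actb. H3K4me1 was not confined to the sides of the H3K4me3 peak. At Myl9, for example, an H3K4me1 region at 1271 to 2508 bp in all 6 libraries lay inside the H3K4me3 region of -1557 to 4210 bp. At Actb, Actg1, Tpm1, Tpm2 and Vcl no library had an H3K4me1 peak over the start site. This was 5 of 10 members, against 60.6% of the 11548 genes with H3K4me3 over the start site in all 6 libraries. Actg1 also had no H3K4me2 peak over its start site in any library, and its H3K4me2 peaks ended between -252 and -118 bp and began again at 219 to 508 bp after the start.

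**Figure D2:**
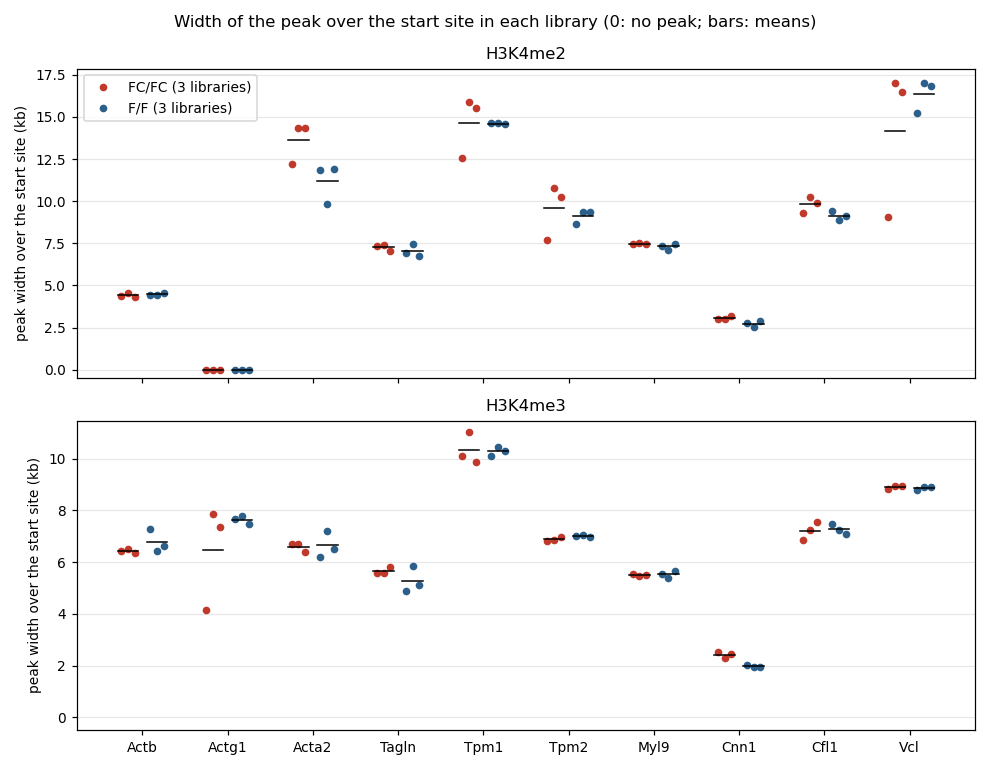
Width in kb of the H3K4me2 (top) and H3K4me3 (bottom) peak over the start site in each library, FC/FC (red) left of F/F (blue), with bars for means and 0 where no peak lay over the site. Cnn1 has no overlap between genotypes for either mark (H3K4me3: 2513, 2292 and 2439 bp in FC/FC, 2031, 1948 and 1925 bp in F/F), and Acta2 has none for H3K4me2. Library NGS-6282, the leftmost FC/FC point of the H3K4me2 panel, has the narrowest FC/FC peak at Acta2, Tpm1, Tpm2, Myl9, Cnn1, Cfl1 and Vcl.

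The comparison of FC/FC with F/F cells asked whether H3K4 methylation at these genes, relative to reads in transcripts, differed after tamoxifen and MLL2 excision. It cannot tell the drug from the genotype. No member passed the test in any mark (limma on log2(RPKM + 0.1), with a threshold of 0.05 on p after Benjamini-Hochberg adjustment across the whole table). For H3K4me1, 8 members passed the filter on low values (RPKM above 1 in at least 3 of 6 libraries), and Actg1 and Cnn1 did not. Of these 8, 0 were called and 0 had an unadjusted p under 0.05, against 0% called and 25.0% with such a p among 8567 genes, and fold changes on the log2 scale ran from -0.14 (Actb) to 0.08 (Cfl1). For H3K4me3, 0 of 10 were called and 0 had an unadjusted p under 0.05, against 0% and 3.73% of 9073 genes, with log2 fold changes from -0.02 (Acta2) to 0.31 (Cnn1). For H3K4me2, 0 of 10 were called and 2 (Acta2 and Cfl1) had an unadjusted p under 0.05, against 0.591% called as higher, 1.55% called as lower and 29.0% with such a p among 9986 genes. Limma-voom on the recovered reads also called 0 members in each mark. The 95% intervals of the log2 fold changes were widest at Cnn1, from -0.0010 to 0.61 for H3K4me3 and from -0.094 to 0.49 for H3K4me2, so the libraries leave room for a change of that size there.

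**Figure D3:**
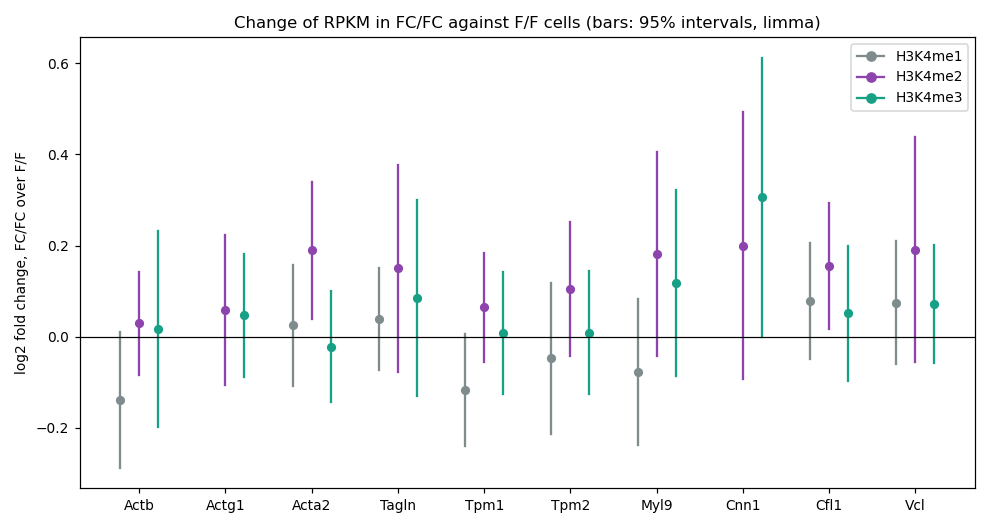
Log2 fold change of RPKM, FC/FC over F/F, for each gene and mark, with 95% intervals from limma. All 10 H3K4me2 points are above 0 as deposited (0.03 at Actb to 0.20 at Cnn1), where 75.0% of all genes were above 0, and quantile normalization moves Actb, Actg1 and Tpm1 below 0. Actg1 and Cnn1 were not tested for H3K4me1.

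The H3K4me2 log2 fold changes of the members had a median of 0.15, against 0.07 over all genes tested, and all 10 were above 0, where 75.0% of all genes were. Under quantile normalization Actb, Actg1 and Tpm1 were below 0, and with each library centred on its median Actb was. Under that centring the calls over all genes were 28 higher and 406 lower, in place of 59 higher and 155 lower. The H3K4me2 result turned on library NGS-6282. Without it, 3 of 10 members were called as higher in FC/FC (Acta2, log2 fold change 0.25, adjusted p 0.013; Cfl1, 0.21, 0.019; Vcl, 0.29, 0.027, limma), but so were 21.3% of 9886 genes, with 8.55% called as lower. Without it, Actb was at -0.0072 and Actg1 at -0.0073, below 0. For H3K4me3, no member was without overlap in RPKM, against 3.41% of genes higher and 3.87% lower in every FC/FC library. The medians for the other marks were -0.01 for H3K4me1 and 0.05 for H3K4me3, against -0.0029 and 0.014 over all genes. The difference of the change between marks was tested in 1 fit of all 18 libraries and was called for no member in any of the 3 pairs of marks, where 0%, 0% and 0.00822% of 12166 genes were called. The smallest p among the members was for Acta2, with a log2 fold change 0.21 higher for H3K4me2 than for H3K4me3 (adjusted p 0.36).

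Peaks gave the same picture at the level of presence. Within 10 kb of the members, peaks of the 6 libraries merged into 54 H3K4me1, 29 H3K4me2 and 16 H3K4me3 regions, of which 36, 24 and 13 had a peak in all 6 libraries. None had a peak in all FC/FC and no F/F library, against 0.430%, 0.101% and 0.0645% of all regions of these marks. The reverse, a peak in no FC/FC but all F/F libraries, was also not seen, against 0.793%, 2.08% and 0.531%. For the width of the peak over the start site, every FC/FC library exceeded every F/F library at 2 of 9 members for H3K4me2 (Acta2 and Cnn1, against 10.7% of genes) and at 1 of 10 for H3K4me3 (Cnn1, against 1.57%). No member was narrower in every FC/FC library for either mark, against 1.33% and 3.15% of genes. For H3K4me1 4 members could be compared and none was without overlap in either direction, against 5.42% longer and 5.50% shorter. The length covered by peaks from 10 kb before to 10 kb after the gene was longer in every FC/FC library at 2 of 10 members for H3K4me2 (Acta2 and Tpm2, against 5.73%) and at 0 for H3K4me3 (against 1.40%). It was shorter at 0 members for H3K4me2 (against 7.86%) and at 1 for H3K4me3 (Tpm2, against 4.41%), and for H3K4me1 no member was without overlap (against 6.56% longer and 8.39% shorter). With 3 libraries against 3, the smallest p of an exact permutation test is 0.1, so none of these single genes can reach 0.05.

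Cnn1, encoding the smooth muscle calponin h1 that binds actin and myosin, had the lowest H3K4me2 and H3K4me3 of the set. Its H3K4me3 was 1.28, 1.05 and 1.12 RPKM in the FC/FC libraries and 1.15, 0.834 and 0.781 RPKM in the F/F libraries. The FC/FC values were the higher ones on average, but the highest F/F library exceeded 2 of the 3 FC/FC libraries (log2 fold change 0.31, SE 0.13, limma adjusted p 0.99). Without that F/F library, NGS-6279, the log2 fold change was 0.46 (limma adjusted p 0.50). Only 1 of the 3 F/F libraries passed RPKM 1, so the gene entered the H3K4me3 test mainly through its FC/FC libraries. The H3K4me3 peak over the start began at -261 to -177 bp in every library, while its far end lay at 2310, 2032 and 2261 bp in the FC/FC and at 1800, 1686 and 1680 bp in the F/F libraries. All 3 FC/FC peaks therefore ended further into the gene, with a mean width 447 bp greater (exact 2-sided permutation p 0.1, the smallest possible). The H3K4me2 peak ended at 2677, 2657 and 2798 bp in FC/FC and at 2343, 2221 and 2572 bp in F/F libraries, 342 bp wider on average (exact p 0.1). The 2 marks are not independent of each other here. The 3 marks of a library set share 1 H3 control library, and the same set held the highest Cnn1 value for all 3 marks in FC/FC (NGS-6281, NGS-6282 and NGS-6283) and in F/F cells (NGS-6277, NGS-6278 and NGS-6279). Upstream, in a stretch with no annotated gene, all 6 libraries of each mark had H3K4me1 (from -4648 to -1380 bp) and H3K4me2 (from -4303 to -2343 bp), and 1 of 3 FC/FC and 1 of 3 F/F libraries had H3K4me3. An H3K4me3 region at 16303 to 18941 bp lay over a start site of the neighbouring gene Elof1, which RefSeq places at 17942 bp.

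Acta2, the smooth muscle alpha-actin and a marker of myofibroblasts, had the only H3K4me2 level without overlap. It had 6.62, 7.36 and 7.70 RPKM in the FC/FC and 6.53, 6.31 and 6.10 RPKM in the F/F libraries. Every FC/FC library was above every F/F library, as at 27.2% of genes tested (8.43% were lower in every FC/FC library), and the lowest FC/FC value was that of NGS-6282 (log2 fold change 0.19, SE 0.06, limma adjusted p 0.12). Its H3K4me2 peak over the start site was 12230, 14351 and 14358 bp wide in FC/FC and 11862, 9808 and 11900 bp in F/F libraries, and peaks within 10 kb covered 17952, 17822 and 17667 bp in FC/FC against 15250, 15623 and 17389 bp in F/F libraries (exact p 0.1 for each). The H3K4me2 peak began at -2494 to -2150 bp in all 6 libraries and ended at 9788, 12167 and 12121 bp in the FC/FC libraries, against 9711, 7313 and 9573 bp in the F/F libraries. In NGS-6282 of FC/FC and in NGS-6286 and NGS-6294 of F/F cells a separate peak began just beyond that end. H3K4me3 at Acta2 was 11.9, 11.4 and 11.2 RPKM in FC/FC and 11.8, 11.7 and 11.5 RPKM in F/F libraries, with a 95% interval of the log2 fold change from -0.14 to 0.10. Upstream, a region from -13350 to -5320 bp, which overlaps the predicted RefSeq gene Gm31355, carried H3K4me1 in all 6 libraries, and H3K4me2 was present from -12333 to -6530 bp in all 6. An H3K4me3 peak within it, from -11179 to -9185 bp over all libraries, was called in 1 of 3 FC/FC (NGS-6291) and 3 of 3 F/F libraries.

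**Figure D4:**
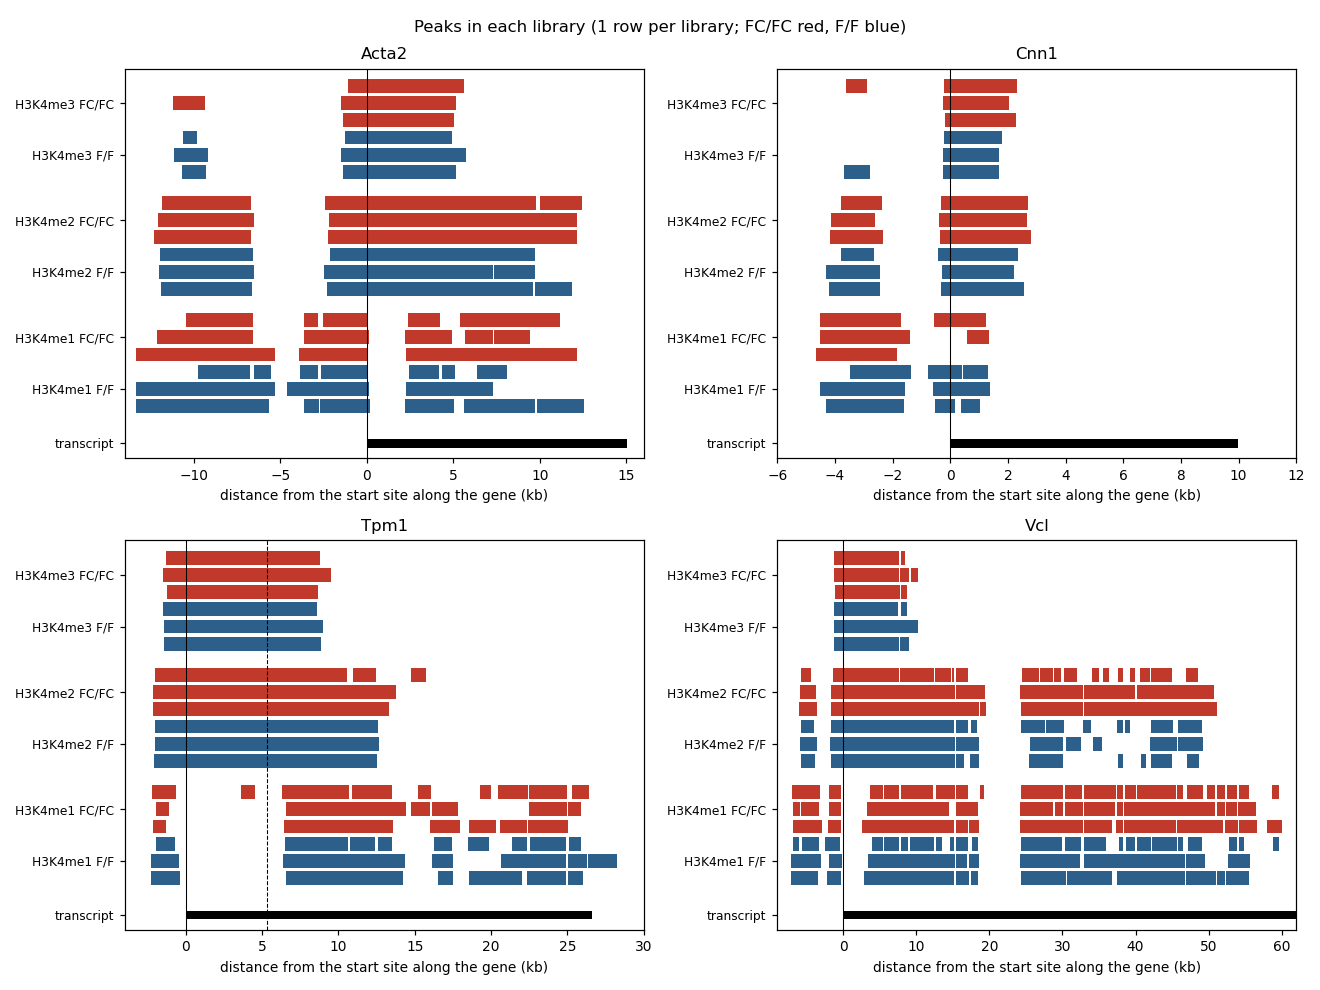
Peaks of every library at Acta2, Cnn1, Tpm1 and Vcl, drawn by distance in kb from the start site of the longest transcript (solid line, 0), with FC/FC rows (red) above F/F rows (blue) for each mark and the transcript in black (cut off at the right for Vcl). The dashed line in Tpm1 marks its inner start site. The H3K4me3 peaks of Cnn1 end at 2310, 2032 and 2261 bp in FC/FC and at 1800, 1686 and 1680 bp in F/F libraries, and no H3K4me1 peak lies over the start site of Tpm1 or Vcl in any library.

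Tagln and Myl9 are the other members known for smooth muscle. Tagln encodes transgelin, an actin cross-linking protein. It had H3K4me3 of 12.8, 11.7 and 11.8 RPKM in FC/FC and 12.4, 12.1 and 9.88 RPKM in F/F libraries, where the lowest F/F library set the difference (log2 fold change 0.08, SE 0.09, limma adjusted p 0.99). Its H3K4me2 was 12.1, 10.3 and 10.6 RPKM in FC/FC and 11.3, 9.20 and 9.29 RPKM in F/F libraries. The genotypes overlapped in both marks. Myl9 had H3K4me3 of 16.1, 14.7 and 14.2 RPKM in FC/FC and 15.5, 12.6 and 13.5 RPKM in F/F libraries, and H3K4me2 of 13.6, 11.4 and 11.2 RPKM in FC/FC and 11.7, 9.72 and 10.5 RPKM in F/F libraries. As at Cnn1, the highest value of each genotype came from the set of libraries NGS-6281 to NGS-6283 in FC/FC and NGS-6277 to NGS-6279 in F/F cells. The width of the H3K4me3 peak over the Myl9 start hardly varied, with 5544, 5457 and 5494 bp in FC/FC and 5541, 5401 and 5666 bp in F/F libraries. Tagln had an H3K4me1 region at 14420 to 19139 bp and an H3K4me2 region at 14882 to 16761 bp in all 6 libraries, and no H3K4me3 there. Both overlapped the convertase gene Pcsk7, and the H3K4me1 region held a predicted Pcsk7 start at 17479 bp. RefSeq places Pcsk7 also over the H3K4me1 region at 2339 to 5582 bp inside Tagln, so marks there may belong to either gene.

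The 2 cytoplasmic actins, which form the filaments of non-muscle cells, overlapped between genotypes in all 3 marks. Actb had 55.1, 45.7 and 52.7 RPKM of H3K4me3 in FC/FC and 55.9, 46.9 and 49.0 RPKM in F/F libraries, which overlapped fully (log2 fold change 0.02, 95% interval -0.20 to 0.23). Its H3K4me2 was 19.2, 17.5 and 18.04 RPKM in FC/FC and 18.4, 17.7 and 17.5 RPKM in F/F libraries (95% interval -0.08 to 0.14). Its H3K4me1 was 1.65, 1.68 and 1.56 RPKM in FC/FC and 1.95, 1.80 and 1.67 RPKM in F/F libraries, a log2 fold change of -0.14 (SE 0.07, limma adjusted p 0.23), from 231 to 281 reads per library. Without F/F library NGS-6277 it was -0.083. A second H3K4me3 region at 10026 to 13261 bp was present in all 6 libraries and covers the start site of Fbxl18, an F-box gene, at 11516 bp. Actg1 had 44.2, 42.5 and 46.1 RPKM of H3K4me3 in FC/FC and 44.6, 41.5 and 42.4 RPKM in F/F libraries, with a 95% interval of the log2 fold change from -0.09 to 0.18. In 5 libraries 1 H3K4me3 peak of 7367 to 7870 bp spanned both Actg1 and the divergent transcript 0610009L18Rik, whose start lies at -194 bp on the other strand. In FC/FC library NGS-6283 it was called as 2 peaks, so that the peak over the Actg1 start was only 4159 bp wide there, while the length covered within 10 kb was 7092 bp. Reads of the 2 transcripts within 500 bp of each other's start were counted for both.

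The tropomyosins Tpm1 and Tpm2 encode coiled-coil proteins that run along the actin filament. Tpm1 has 6 transcripts in the tables, from an outer start site at position 67049213 and an inner one at 67043871 of chromosome 9 (mm10, minus strand). Subtracting the reads of nested transcripts divided the gene into 3 stretches. H3K4me3 was concentrated in the stretch of 5342 bp that begins 500 bp before the outer start and ends 500 bp before the inner one, with 37.8, 35.9 and 34.8 RPKM in FC/FC and 38.1, 36.4 and 35.1 RPKM in F/F libraries. From the inner start to the nearest 3′ end it averaged 3.29 ± 0.173 RPKM in FC/FC and 3.07 ± 0.249 in F/F cells (SD, n = 3). H3K4me1 had the opposite distribution, with 0.664 ± 0.150 RPKM in FC/FC and 0.774 ± 0.142 in F/F cells between the starts and 2.60 ± 0.0542 and 2.76 ± 0.113 beyond. In the 3′ part, H3K4me1 was 2.16, 2.32 and 2.23 RPKM in FC/FC and 2.58, 2.86 and 2.46 RPKM in F/F libraries, lower in every FC/FC library (exact 2-sided permutation p 0.1, the smallest possible, 1 of 9 comparisons). None of the other 8 comparisons of stretch and mark had a p under 0.2. Over the whole transcript H3K4me1 was 2.14, 2.19 and 2.14 RPKM in FC/FC and 2.35, 2.48 and 2.23 RPKM in F/F libraries, without overlap, as at 18.7% of genes tested, where 11.8% were higher in every FC/FC library (log2 fold change -0.12, SE 0.05, limma adjusted p 0.21).

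**Figure D5:**
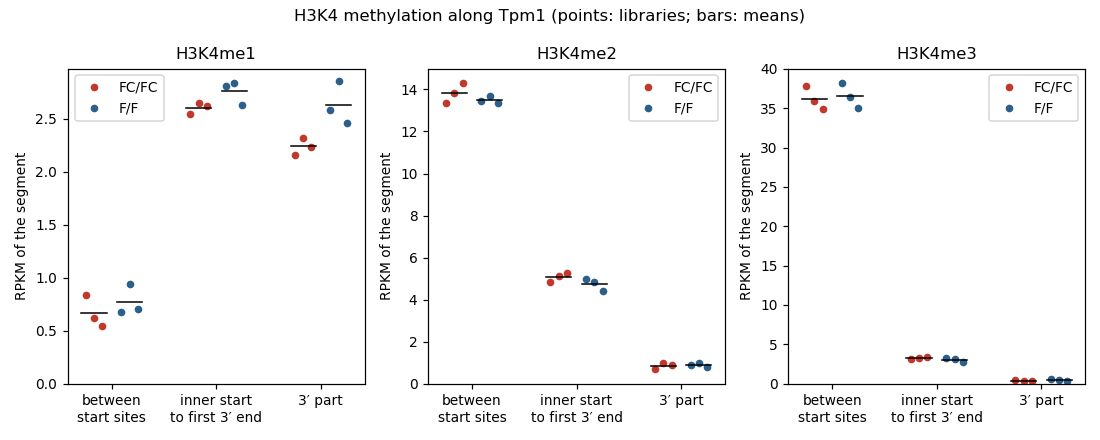
RPKM of 3 stretches of Tpm1 in each library, FC/FC (red) left of F/F (blue), for the 3 marks, with bars for means. H3K4me3 is highest between the start sites (36.2 in FC/FC and 36.5 in F/F on average) and H3K4me1 is lowest there (0.664 and 0.774), and in the 3′ part H3K4me1 is lower in every FC/FC library.

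Tpm2 had 12.7, 11.98 and 12.1 RPKM of H3K4me3 in FC/FC and 12.8, 12.2 and 11.6 RPKM in F/F libraries, and its 95% interval of the log2 fold change was -0.13 to 0.14. Peaks of H3K4me3 within 10 kb covered 8519, 8588 and 8583 bp in FC/FC and 8665, 8757 and 8939 bp in F/F libraries, without overlap, with a mean difference of -224 bp. H3K4me2 peaks covered 13619, 13169 and 13228 bp in FC/FC and 12794, 11526 and 12485 bp in F/F libraries, 1070 bp more in FC/FC. These lengths include a separate peak in all 6 libraries of each mark, for H3K4me2 at 13825 to 17010 bp, and for H3K4me3 at 13988 to 15965 bp. In every library this peak lay over the start site of Arhgef39 at 14807 bp, and the H3K4me2 peak also reached that of Car9 at 16528 bp in 3 of 6 libraries. With peaks of a score of at least 100 the H3K4me2 difference at Tpm2 was no longer without overlap.

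Of the remaining members, Cfl1 encodes cofilin, which severs actin filaments, and Vcl encodes vinculin, which links them to focal adhesions. Cfl1 had 11.4, 12.8 and 12.7 RPKM of H3K4me2 in FC/FC and 11.0, 11.5 and 10.5 RPKM in F/F libraries, where 2 of 3 FC/FC libraries were above all F/F libraries and NGS-6282 was not (log2 fold change 0.16, SE 0.06, limma adjusted p 0.15). Its H3K4me3 was 25.4, 24.8 and 27.9 RPKM in FC/FC and 25.9, 24.2 and 25.1 RPKM in F/F libraries. The H3K4me3 peak began at -4215 to -3809 bp and covered the start of the divergent gene Mus81, a structure-specific endonuclease, at -2119 bp in all 6 libraries. H3K4me2 over Vcl was 2.27, 2.77 and 2.88 RPKM in FC/FC and 2.35, 2.49 and 2.04 RPKM in F/F libraries, again with NGS-6282 as the lowest FC/FC library (log2 fold change 0.19, SE 0.10, limma adjusted p 0.25). Most of its peaks lay inside the gene. From 24 to 52 kb after the start, a stretch chosen after the peaks were seen, H3K4me2 peaks covered 15693, 26230 and 26708 bp in FC/FC and 14643, 14878 and 10653 bp in F/F libraries. The library NGS-6282 was close to the F/F libraries and the other 2 FC/FC libraries were well above them. H3K4me1 peaks covered 25536, 26477 and 26887 bp of it in FC/FC and 20367, 24662 and 26617 bp in F/F libraries, and no H3K4me3 peak fell there in any library. The H3K4me3 level of Vcl was 2.38, 2.48 and 2.40 RPKM in FC/FC and 2.39, 2.34 and 2.17 RPKM in F/F libraries, with a 95% interval of the log2 fold change from -0.06 to 0.20.

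Other genes of the pathway were read from 3 lists. Of the SRF and cofactor genes, 8 of 10 listed symbols were in the tables, and 0 of 7, 0 of 6 and 0 of 5 tested genes were called for H3K4me1, H3K4me2 and H3K4me3 (limma), with 1, 2 and 0 at an unadjusted p under 0.05. Srf itself had H3K4me3 of 13.2 ± 1.01 RPKM in FC/FC and 12.6 ± 0.592 in F/F cells. Elk3, an ETS factor that can join SRF at CArG boxes, had H3K4me2 of 3.12, 2.93 and 2.96 RPKM in FC/FC and 3.39, 3.39 and 3.42 RPKM in F/F libraries, lower in every FC/FC library, as at 8.43% of genes tested (log2 fold change -0.17, SE 0.04, adjusted p 0.078, limma). Elk4 had 3.07, 3.21 and 3.17 RPKM in FC/FC and 2.93, 2.92 and 2.72 RPKM in F/F libraries, higher in every FC/FC library, as at 27.2% of genes tested (log2 fold change 0.13, SE 0.05, adjusted p 0.13). Of 16 paralogs of the members, 0 of 13, 0 of 11 and 0 of 10 were called, with 1, 3 and 0 at an unadjusted p under 0.05. Myl6, the essential light chain of non-muscle myosin, was higher than any member in H3K4me3, with 76.8 ± 1.29 RPKM in FC/FC and 77.2 ± 1.75 in F/F cells. Of 31 other actin cytoskeleton and contractile genes, 0 of 29, 0 of 27 and 0 of 25 were called, with 3, 7 and 1 at an unadjusted p under 0.05. Over all genes tested 25.0%, 29.0% and 3.73% had such a p (limma), in the same order of marks. Called for H3K4me2 were 0.591% as higher and 1.55% as lower, and 0% for the other marks. Their median H3K4me2 log2 fold change was 0.02, that of the paralogs 0.08 and that of the SRF and cofactor genes 0.00, against 0.15 for the members and 0.07 over all genes tested. The median of the members was 0.094 without NGS-6282 (0.056 over all genes) and 0.061 under quantile normalization (0.019 over all genes). Pfn1, encoding profilin, had H3K4me3 of 41.02 ± 1.53 RPKM in FC/FC and 39.7 ± 3.18 in F/F cells, near Actg1.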

How the data were processed

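The authors' processing notes name CASAVA 1.4, BWA 0.7.10, MACS 1.4.2 and the build mm10, to which reads were aligned with BWA. They deposited RPKM per library over RefSeq transcripts extended by 500 bp on both sides, relative to the reads in transcripts, so a change shared by all genes cannot be seen. They also deposited peaks called per library against 1 H3 library with MACS, whose score is not comparable between depths. Columns with the authors' own gene flags were not used. The other 34 samples were not analysed.

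The longest transcript of each gene was kept (at least 250 bp). Genes that passed RPKM 1 in 3 or more of the 6 libraries were tested on log2(RPKM + 0.1), which understates changes of low genes, with limma 3.58.1 (R 4.3.3, mean-variance trend, Benjamini-Hochberg over all genes, checked on simulated data). RPKM gave whole reads for 100% of values (tolerance 0.01 read). Peak widths and covered lengths were compared by non-overlap and by exact permutation tests. RefSeq GRCm38.p6 gave promoters and neighbours. Members, lists and the rule for naming genes (all members, and of each list the 3 with the highest H3K4me3 where none was called) were chosen with earlier results of these data known.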

Additional observations from a re-analysis of the deposited data

How the results depend on the processing

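The counts of called members stayed at 0 for every mark with a pseudocount of 0.01 or 1, without the RPKM filter, with the shortest in place of the longest transcript, under quantile normalization, centring, moderation without a trend, 1 fit of all 18 libraries, limma-voom and when any 1 library was left out, except that 3 members were called for H3K4me2 without NGS-6282 (range 0 to 3 over the libraries left out). Over all genes, H3K4me2 calls were 59 higher and 155 lower in FC/FC cells, against 28 and 319 under quantile normalization, 28 and 406 with centring, 69 and 384 without the filter, 91 and 269 by limma-voom, 162 and 326 in the fit of all libraries, 2109 and 845 without NGS-6282, and 0 higher with 0 to 18 lower without any other library. H3K4me1 calls were 0, against 17 higher and 69 lower under quantile normalization, 16 and 71 with centring, 116 and 614 by limma-voom and 127 and 150 in the fit of all libraries. H3K4me3 calls were 0, against 4 higher and 18 lower in that fit, 2 lower without NGS-6279 and 1 lower without NGS-6291. The difference between marks was called for 0 members also with the H3 control library as a block or a pseudocount of 1.

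Leaving out 1 library cannot make separate genotypes overlap, so it mostly adds genes. The members without overlap then numbered 0 to 2 for the H3K4me1 width over the start, 0 to 2 for the H3K4me1 covered length, 2 to 5 for the H3K4me2 width, 2 to 5 for the H3K4me2 covered length, 1 to 3 for the H3K4me3 width and 1 to 2 for the H3K4me3 covered length. Among all genes the matching shares for widths reached 31.0% (H3K4me1), 56.5% (H3K4me2) and 25.5% (H3K4me3), and those for covered lengths 30.7%, 46.3% and 27.9% in this order. The 5 in each H3K4me2 count (5 of 9 and 5 of 10) came without NGS-6282, where 56.5% and 46.3% of genes lacked overlap. The 3 H3K4me3 widths (of 10) came without NGS-6287 (8.43% of all genes) or NGS-6291 (25.5%). The 2 H3K4me1 widths (of 4) came without NGS-6281 (18.7%). Peaks with a score of at least 100 changed the covered-length counts to 1 (H3K4me1), 1 (H3K4me2) and 2 (H3K4me3), and taking equally many top peaks from each library gave 1, 3 and 2 in the same order of marks. The 5 kb window gave 3 for H3K4me2, against 13.6% of all genes. The causes were not tested.

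Of values that changed sign, H3K4me2 under quantile normalization gave log2 fold changes of -0.074 for Actb, -0.033 for Actg1 and -0.0027 for Tpm1, and centring gave -0.026 for Actb. H3K4me3 under quantile normalization gave -0.013 for Tpm1 and -0.021 for Tpm2, and centring gave -0.0051 for Tpm1 and -0.0047 for Tpm2. Leaving out 1 library gave ranges across 0 for H3K4me1 at Acta2 (-0.014 to 0.058) and Tpm2 (-0.109 to 0.0030), for H3K4me2 at Actb (-0.0072 to 0.058) and Actg1 (-0.0073 to 0.105), and for H3K4me3 at Actb (-0.039 to 0.096), Tagln (-0.018 to 0.144), Tpm1 (-0.029 to 0.044) and Tpm2 (-0.025 to 0.042). Ranges that kept their sign but moved by over 1.5 times from the full value were those of H3K4me2 at Tagln (0.078 to 0.25), Tpm2 (0.044 to 0.16), Myl9 (0.091 to 0.25), Cnn1 (0.11 to 0.32) and Vcl (0.11 to 0.29), of H3K4me3 at Myl9 (0.052 to 0.20) and Cnn1 (0.21 to 0.46), and of H3K4me1 at Actb (-0.19 to -0.083), among values of at least 0.1 in size. No paired analysis was made, because no label pairs FC/FC with F/F libraries and the order of library numbers is no pairing. Low read numbers limit the H3K4me3 value of Cnn1, with 272 to 471 reads per library.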
